A study of Mus musculus with 35 samples.

Results

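The tetraspanins Cd9, Cd37, Cd53, Cd63, Cd81, Cd82 and Cd151 were followed in microglia sorted from mouse spinal cord. These 7 genes, of 45706 in the deposited tables, were chosen by name, and the family was selected on 2 results of the same libraries, a lower Cd81 in early disease and a higher Cd63 in late disease. Values of early or late disease against controls are therefore given below as a description of the 7 genes, without a test. All 7 passed the filter on low counts.

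The mice were rNLS8 animals, in which a NEFH-tTA transgene drives, in neurons, a tetO human TDP-43 without its nuclear localisation signal. Doxycycline in the diet silences it, and all mice, of a mixed C57BL/6J X C3HeJ F1 strain, received doxycycline until 8 to 12 weeks of age. Early disease comprised 7 libraries of rNLS8 mice 2 weeks off doxycycline, and late disease 7 libraries of mice 6 weeks off it. Recovery comprised 7 libraries of mice 6 weeks off and then 1 week back on it. Controls comprised 14 libraries. Of these, 6 were from rNLS8 mice kept on doxycycline, and 8 from wild-type (WT) littermates, 4 of them 2 weeks off doxycycline, 1 of them 6 weeks off and 3 of them 6 weeks off and 1 week on. The promoter targets neurons, and microglia are not cells in which it is meant to act. The labels do not say whether animals were pooled, and p-values measure the spread between these libraries.

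Tetraspanins are small proteins that span the membrane several times and gather integrins, immune receptors and proteases into patches of the membrane. CD9, CD63 and CD81 are widely used markers of extracellular vesicles, and CD63 is mostly found in late endosomes and lysosomes. CD37 and CD53 are largely restricted to leukocytes, whereas CD82 and CD151 are known for their association with integrins. In the mouse brain, Cd9 and Cd63 are among the genes known to be higher in disease-associated microglia.

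Libraries held 13.9 M to 20.4 M estimated fragments (M, 1e6). The 10 microglial markers, among them P2ry12 and Tmem119, summed to 46577 to 74550 CPM over all libraries (CPM, counts per 1e6 counts of the library). In late disease against controls 1 of the 10 rose and 4 fell by the test described below, which 15.4% of all genes passed. In early disease and in recovery 0 of the 10 passed, where 0.00741% and 3.98% of all genes did. Their sums reached at most 66529 CPM in early disease, 66062 CPM in late disease and 66005 CPM in recovery. Each of these lay below the control median of 67780 CPM. Recovery libraries had all been given the date code 0803, which no other group had, so recovery and date cannot be told apart. Of the controls, 9 had the code 0810, including all 6 rNLS8 controls, and early and late disease shared codes with the other 5. Code 1019 held 2 early and 1 late library and 4 controls, and code 1102 held 3 early and 3 late libraries and 1 control. Code 1130 held 2 early and 3 late libraries, Late 6 among them, and 0 controls, so values against controls of shared date codes rest on few matched libraries. Recovery libraries also had higher levels of neutrophil and monocyte markers. Of 11 neutrophil markers tested, 10 rose in recovery. Csf3r stood at 576 to 842 CPM in recovery and at 437 to 775 CPM in controls, and without it the 12 remaining listed markers summed to 217 to 7119 CPM in recovery against 0.109 to 329 CPM in controls. Monocyte markers, of which 7 of 8 tested rose, summed to 71.2 to 608 CPM in recovery against 6.51 to 26.3 CPM in controls. Border macrophage markers, of which 2 of 7 rose, summed to 7.62 to 55.6 CPM in recovery against 1.53 to 12.4 CPM in controls. Over all libraries the sums were at most 6.15 CPM for T and NK cell markers, 4.29 CPM for mural cell and fibroblast markers, 45.3 CPM for B cell markers, 43.0 CPM for platelet markers, 53.9 CPM for endothelial markers and 136 CPM for red cell markers. Oligodendrocyte markers summed to 147 to 243 CPM and astrocyte markers to 164 to 2728 CPM, and 0 of them passed in any group against controls. One late-disease library, Late 6, stood apart in several members, and values that rest on it are given with and without it. Late 6 also had the highest monocyte marker sum of its group, at 158 CPM beside a late median of 37.4 CPM. Its border macrophage marker sum was the highest of the group too, at 38 CPM beside a median of 12.1 CPM. The part of such cells in the values of Late 6 was not tested.

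On the scale corrected for transcript length, TPM (transcripts per 1e6 transcripts), Cd81 was the most abundant member in each group and in each of the 35 libraries. Its median was 5005 TPM in early disease, 4938 TPM in late disease, 5527 TPM in recovery and 5766 TPM in controls. Since TPM columns lacked 13.9 to 30.8% of the full total in the controls of code 0810, TPM serve here to set genes beside each other, and groups are compared mainly in CPM. At the other end, Cd151 had medians of 8.65 TPM in early disease, 9.34 TPM in late disease, 13.1 TPM in recovery and 9.82 TPM in controls, with 113 to 360 fragments per library over all groups. Between these ends lay Cd53 and Cd9, then Cd37 and Cd63, then Cd82.

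Neighbours in this order changed places between groups. Cd9 exceeded Cd53 within the same library in 3 of 7 early, 6 of 7 late, 7 of 7 recovery and 2 of 14 control libraries. Cd63 exceeded Cd37 in 4 of 7 early, 7 of 7 late, 7 of 7 recovery and 3 of 14 control libraries. The ranges of Cd9 and Cd53 overlapped in controls, at 1210 to 2144 TPM for Cd9 and 1618 to 2209 TPM for Cd53, so their order there was not separated beyond the spread of libraries. The ranges of Cd37 and Cd63 overlapped in controls as well, at 579 to 921 TPM for Cd37 and 420 to 1080 TPM for Cd63.

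**Figure D1:**
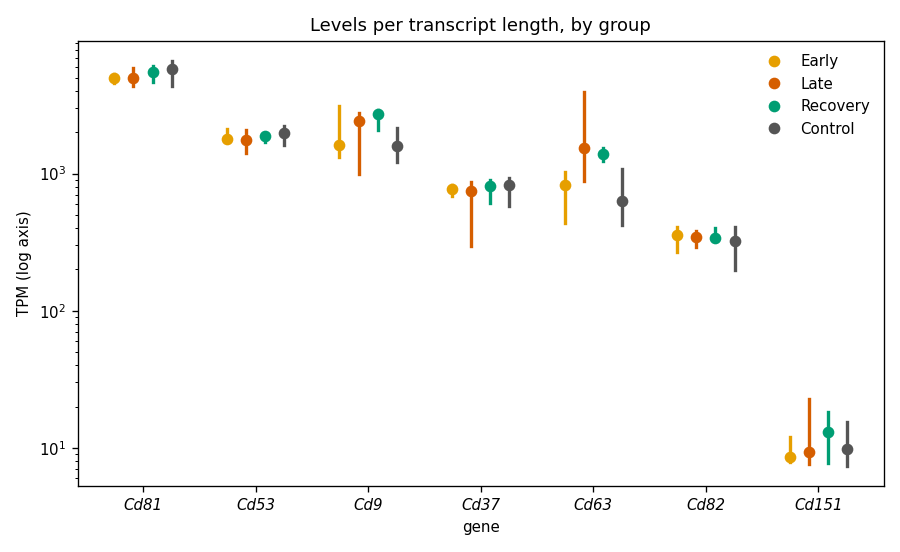
Level of each tetraspanin in TPM on a log axis, by group; points are medians and lines run from the lowest to the highest library (n = 7 early, 7 late, 7 recovery and 14 controls). Cd81 lies above all others and Cd151 below all others in every group, while Cd9 and Cd63 are placed higher in late disease and recovery than in controls.

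Cd63, the endosomal and lysosomal member (ENSMUSG00000025351.11, mm10 chromosome 10, 128900989 to 128912822, plus strand), showed the widest differences from controls among the 7 genes in late disease and in recovery. In late disease it stood at 345 CPM in the lowest library, 733 CPM in the median and 1998 CPM in the highest. In recovery it stood at 659, 693 and 908 CPM (lowest, median, highest). In controls it stood at 200, 324 and 654 CPM (lowest, median, highest). All 7 recovery libraries were above the highest control, by a small margin for the lowest of them, and 5 of 7 late-disease libraries were. The groups of recovery and controls thus did not overlap, whereas late disease overlapped controls through Late 1 at 345 CPM and Late 5 at 651 CPM. The share of all genes that separate a group from controls in this way was not counted.

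Recovery minus control was not among the contrasts that chose the genes, although it shares the control libraries with them. Over all 13501 genes tested, 3.98% passed edgeR's quasi-likelihood test in recovery minus control at a Benjamini-Hochberg adjusted p under 0.05. Of the 7 members, 2 passed, Cd63 and Cd9, both higher in recovery. Cd63 differed by 1.03 ± 0.21 (log2 difference in CPM ± SE), a 2.04-fold higher level, with an adjusted p of 0.00306 by edgeR. Leaving out any 1 of the 35 libraries gave differences of 0.96 to 1.14 and adjusted p of at most 0.0149. The call held against the 8 WT controls alone (1.00 ± 0.27, adjusted p = 0.043 by edgeR) and against the 6 rNLS8 controls alone (1.06 ± 0.26, adjusted p = 0.0164 by edgeR).

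Neutrophil and monocyte transcripts were also higher in recovery than in controls. In late disease the median of Cd63 was 733 CPM. There the 12 neutrophil markers without Csf3r summed to 0.42 to 318 CPM, against 0.109 to 329 CPM in controls. Monocyte markers summed to 32.0 to 158 CPM in late disease, against 6.51 to 26.3 CPM in controls. Late disease is a contrast that chose Cd63, and the part of either cell type in its level there was not tested. With the mean level of the neutrophil markers as a covariate, the Cd63 difference in recovery was 0.94 but its adjusted p was 0.814 by edgeR. In that fit 4 of all 13501 genes passed. Within recovery, the 3 libraries with the lowest sums of the 12 neutrophil markers, Recovery 4, 8 and 5 at 217, 233 and 739 CPM, had 659, 694 and 670 CPM of Cd63. In Recovery 2 and 7, with sums of 1688 and 4333 CPM, Cd63 was 693 and 662 CPM. In Recovery 9 and 3, with the highest sums of 6387 and 7119 CPM, it was 908 and 705 CPM, so the highest Cd63 of the group stood beside the second-highest sum. Without Recovery 3 and Control 6, the libraries with the highest neutrophil marker mean of their groups, Cd63 differed by 1.03 ± 0.24, with an adjusted p of 0.0114 by edgeR. The remaining recovery libraries still had higher sums of neutrophil markers, at 217 to 6387 CPM against at most 200 CPM in the remaining controls. With Control 6, at 329 CPM, the sums had overlapped. On the mean log2 CPM of the markers they still overlapped, with Recovery 8 at 3.57 and Control 12 at 4.32. The part of monocyte transcripts in the difference was not tested.

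**Figure D2:**
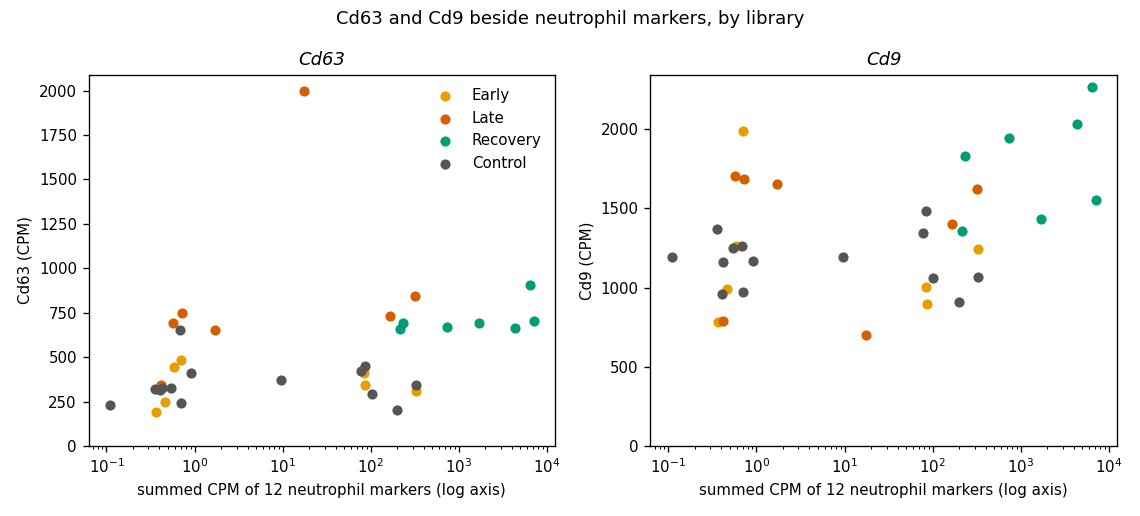
CPM of Cd63 (left) and Cd9 (right) against the summed CPM of 12 neutrophil markers on a log axis, 1 point per library, by group. Recovery libraries run from 217 to 7119 CPM of these markers, and Cd63 lies between 659 and 908 CPM across that range.

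Against controls, Cd63 in late disease was higher by 1.30 ± 0.21 (log2 difference in CPM ± SE, n = 7 and 14), and this is a contrast that chose the gene. Without Late 6 the difference was 0.93. Against the 5 controls that share date codes with the disease groups it was 1.18 ± 0.32, and 1.18 ± 0.35 with date code as a term of the model. In early disease Cd63 stood at 189, 343 and 483 CPM (lowest, median, highest), within the range of controls except for the lowest library, Early 6. The difference from controls there was −0.02 ± 0.22.

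Recovery and late disease were set side by side without a test for Cd63, because the late libraries chose it. The difference was −0.27 ± 0.26 (recovery minus late disease, log2 ± SE), and 0.09 without Late 6. The spread in late disease, 345 to 1998 CPM, enclosed that in recovery, 659 to 908 CPM. Late disease minus early disease gave 1.32 ± 0.26 for Cd63, the widest such difference among the members, with the other 6 at −0.08 to 0.33.

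**Figure D3:**
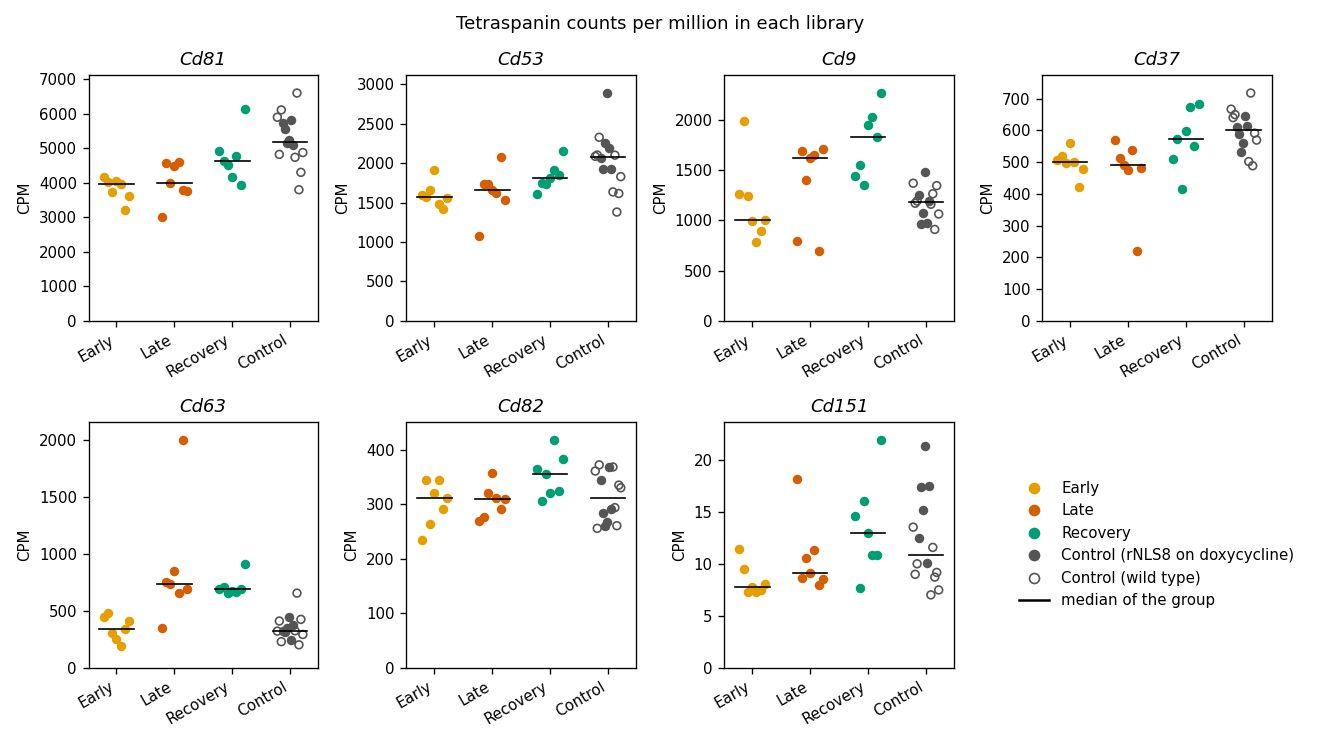
CPM of the 7 tetraspanins in every library, 1 panel per gene, with groups in the order early, late, recovery and control; filled grey points are rNLS8 controls on doxycycline, open grey points are WT controls and black lines are medians. All 7 recovery libraries lie above the highest control for Cd63, and all 7 early libraries lie below the control median for Cd81.

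Cd9 (ENSMUSG00000030342.8, mm10 chromosome 6, 125460266 to 125494791, minus strand), the vesicle marker that associates with integrins and immunoglobulin-domain partners, was the other member that passed in recovery. It stood at 1355, 1829 and 2266 CPM in recovery (lowest, median, highest) and at 909, 1181 and 1485 CPM in controls. Of the 7 recovery libraries, 5 lay above the highest control, and Recovery 2 and 4 lay within the range of controls. The difference was 0.58 ± 0.14 (log2 ± SE), 1.5-fold, with an adjusted p of 0.0148 by edgeR. This call depended on 1 library and on the controls used. It ended without Recovery 9 (0.53, adjusted p = 0.0547 by edgeR), with the 8 WT controls alone (0.57, adjusted p = 0.0813) and with the 6 rNLS8 controls alone (0.58, adjusted p = 0.0694). With the neutrophil covariate the difference was 0.81, with an adjusted p of 0.261 by edgeR, in the fit where 4 of all 13501 genes passed.

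In late disease the Cd9 values split into 5 high and 2 low libraries. Its lowest, median and highest values were 700, 1621 and 1706 CPM. Late 6 at 700 CPM and Late 1 at 792 CPM were below the lowest control, and the other 5 libraries were at 1404 to 1706 CPM. The difference from controls was 0.25 ± 0.15, 0.35 without Late 6 and 0.16 without Late 7. Late 6 thus had the highest Cd63 and the lowest Cd9 of its group. In early disease Cd9 stood at 783, 1003 and 1987 CPM, where Early 3 was above every control, and the difference was −0.02 ± 0.15.

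Cd81 (ENSMUSG00000037706.14, mm10 chromosome 7, 143052739 to 143067934, plus strand) is known as a vesicle marker. It stood at 3210, 3973 and 4178 CPM in early disease (lowest, median, highest). In controls it stood at 3799, 5197 and 6602 CPM. All 7 early libraries were below the control median and 3 were below the lowest control, so the groups overlapped. The summed microglial markers were 57539 to 66529 CPM in early disease, 46577 to 66062 CPM in late disease and 58816 to 74550 CPM in controls, and their part in the lower Cd81 was not tested. In such bulk samples, fewer cells of a type and less RNA of a gene per cell cannot be told apart.

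The difference of Cd81 in early disease, a contrast that chose the gene, was −0.46 ± 0.09 (log2 ± SE), or 0.726 of the control level. Leaving out any 1 library gave −0.49 to −0.42. It was −0.34 ± 0.13 against the 5 controls of shared date codes, −0.37 ± 0.13 with date code as a term, −0.51 ± 0.10 against rNLS8 controls and −0.44 ± 0.11 against WT controls. On log2(TPM + 1) it was −0.21 ± 0.08, on a scale where the median of all genes tested was 0.22. That median was 0.18 in late disease and 0.07 in recovery on the TPM scale, against −0.0024, 0.02 and −0.01 on the CPM scale. Members should be read against these shifts, since Cd9, Cd63 and Cd82 in early disease and Cd82 and Cd151 in late disease have opposite signs on both scales.

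In late disease Cd81 stood at 3015, 3997 and 4616 CPM (lowest, median, highest), with all 7 libraries below the control median and 3 below the lowest control. Its difference from controls there was −0.39 ± 0.09. In recovery it stood at 3951, 4643 and 6130 CPM. The difference from controls in recovery was −0.15 ± 0.09, which did not pass (adjusted p = 0.413 by edgeR), and its 95% interval ran from −0.34 to 0.04. In recovery 6 of 7 libraries were below the control median, and Recovery 9 at 6130 CPM was above it. Part of these reads may come from R74862, an antisense transcript that overlaps 3 exons of Cd81, since the libraries do not mark strand. R74862 had a mean of 151 fragments, beside 53644 to 112037 fragments of Cd81 per library. Antisense genes also overlap exons of Cd151 (Gm10575, mean of 6.69 fragments), Cd37 (Tead2, mean of 16) and Cd9 (Gm26728, mean of 0.714).

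Cd53 and Cd37, the leukocyte-restricted members, were lower in early and late disease by smaller amounts. Cd53 (ENSMUSG00000040747.9, mm10 chromosome 3, 106759921 to 106790149, minus strand) stood at 1415, 1574 and 1918 CPM in early disease, against 1380, 2075 and 2889 CPM in controls. In late disease it stood at 1080, 1662 and 2081 CPM. All early libraries were below the control median but none was below the lowest control. Differences of Cd53 from controls were −0.34 ± 0.11 in early disease and −0.31 ± 0.11 in late disease. Against the 5 controls of shared date codes they shrank to −0.09 ± 0.12 and −0.07 ± 0.12. Controls of code 0810 had 2197 ± 293 CPM of Cd53 (SD, n = 9) and the other controls 1712 ± 270 CPM (SD, n = 5).

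Cd37 (ENSMUSG00000030798.11, mm10 chromosome 7, 45233632 to 45239115, minus strand) stood at 421, 501 and 561 CPM in early disease and at 489, 600.4 and 718 CPM in controls. In late disease it stood at 222, 492 and 570 CPM, with Late 6 far below the others. Every early and every late library was below the control median of Cd37. The differences were −0.27 ± 0.11 in early disease and −0.34 ± 0.11 in late disease, the second of which was −0.22 without Late 6. With shared-date controls they were −0.19 ± 0.16 and −0.28 ± 0.16.

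In recovery neither of these genes passed. Cd53 stood at 1603, 1814 and 2158 CPM, with a difference of −0.14 ± 0.11 (adjusted p = 0.522 by edgeR). Cd37 stood at 415, 573 and 682 CPM, with a difference of −0.07 ± 0.11 (adjusted p = 0.821 by edgeR). The 95% intervals ran from −0.36 to 0.07 for Cd53 and from −0.30 to 0.16 for Cd37.

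Cd82 and Cd151, the integrin-associated members, differed in abundance and in how far libraries varied. Cd82 (ENSMUSG00000027215.11, mm10 chromosome 2, 93419111 to 93463140, minus strand) stood at 234, 311 and 345 CPM in early disease and at 270, 309 and 357 CPM in late disease. It stood at 307, 355 and 419 CPM in recovery and at 256, 312 and 373 CPM in controls. Differences from controls were −0.06 ± 0.09 in early disease and −0.04 ± 0.09 in late disease. In recovery the difference was 0.17 ± 0.09, which did not pass (adjusted p = 0.32 by edgeR), with 2 of 7 libraries above the highest control.

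Cd151 (ENSMUSG00000025510.11, mm10 chromosome 7, 141467392 to 141471473, plus strand) stood at 7.29, 7.73 and 11.4 CPM in early disease. In late disease it stood at 7.96, 9.06 and 18.1 CPM, and in recovery at 7.64, 12.98 and 21.9 CPM. In controls it stood at 7.00, 10.8 and 21.3 CPM, so every group overlapped the controls. The early difference of −0.53 ± 0.21 turned on the controls used. It was −0.90 ± 0.23 against rNLS8 controls, −0.19 ± 0.20 against WT controls, −0.06 ± 0.23 against shared-date controls and 0.23 ± 0.25 with date code as a term. The late difference of −0.20 ± 0.21 was −0.38 without Late 1 and 0.25 ± 0.23 against shared-date controls. In recovery the difference was 0.16 ± 0.20 (adjusted p = 0.763 by edgeR), and −0.0077 without Recovery 9.

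Set side by side, all 7 differences in early disease were negative on the CPM scale, and in late disease those of Cd63 and Cd9 were positive and the other 5 negative. Both contrasts chose the genes, so nothing is read from these directions. The median log2 difference of the 7 was −0.27 in early disease, −0.20 in late disease and 0.16 in recovery, against −0.0024, 0.02 and −0.01 over all genes tested.

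**Figure D4:**
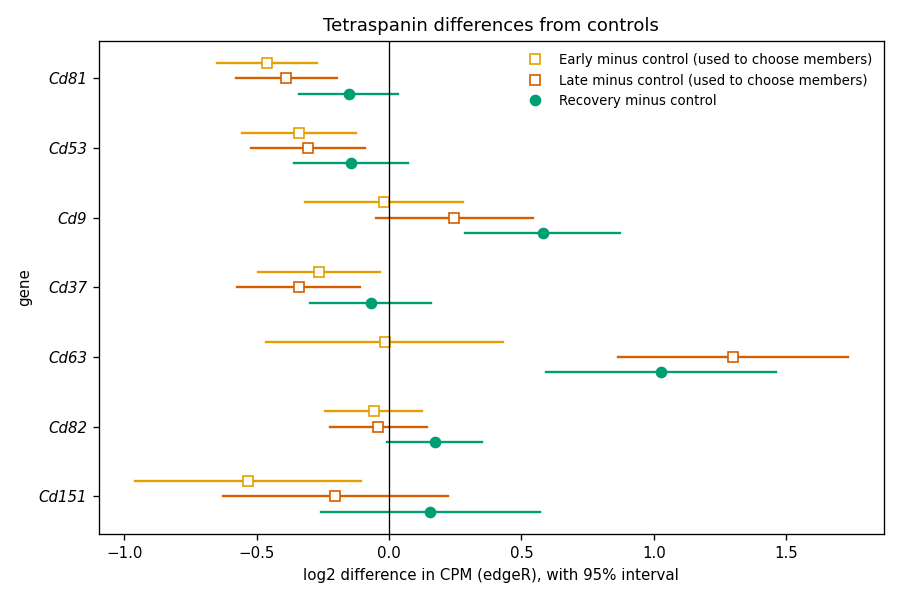
Log2 difference in CPM of each tetraspanin from controls with its 95% interval, for early disease, late disease and recovery; open squares mark the contrasts that chose the genes and filled circles mark recovery. In recovery the intervals of Cd63 and Cd9 lie above 0 and those of the other 5 include 0.

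Recovery and late disease differ by 1 week back on doxycycline. They also share no date code, and neutrophil markers without Csf3r summed to 217 to 7119 CPM in recovery against 0.42 to 318 CPM in late disease. The groups were compared for the 6 members other than Cd63. None passed by edgeR, where 0.585% of all genes did, or by DESeq2, where 357 of 13179 genes did. By edgeR 3 had an unadjusted p under 0.05, as did 2237 of all 13501 genes. Those 3 were Cd81 at 0.24 ± 0.11, Cd37 at 0.27 ± 0.13 and Cd82 at 0.21 ± 0.10 (recovery minus late disease, log2 ± SE), with adjusted p of 0.26, 0.287 and 0.299 by edgeR. Without Late 6, Cd37 differed by 0.16. Cd9 differed by 0.34 ± 0.17, Cd53 by 0.16 ± 0.12 and Cd151 by 0.36 ± 0.24. With 1 library left out, the lowest differences were 0.09 for Cd53 (without Late 1) and 0.21 for Cd151 (without Recovery 9). For Cd9 the lowest was 0.24 (without Late 6). All 6 differences were positive. The 95% intervals reached 0.45 for Cd81 and 0.68 for Cd9, so differences of that size are within what these libraries allow.

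The 2 kinds of control were compared in a fit of the 14 controls alone, since both make up the control level used above. None of the 7 members passed in rNLS8 controls minus WT controls, by edgeR or by DESeq2. Over all genes, 0.00805% of 12425 did by edgeR and 48 of 15681 by DESeq2. By edgeR 1 member had an unadjusted p under 0.05, as did 930 of the 12425 genes. That member was Cd151, at 15.6 ± 4.01 CPM in rNLS8 controls (SD, n = 6) and 9.54 ± 2.14 CPM in WT controls (SD, n = 8), with a difference of 0.72 ± 0.21 (adjusted p = 0.548 by edgeR). Of the 6 rNLS8 controls, 4 were above the highest WT control for Cd151. All rNLS8 controls had date code 0810. Cd53 differed by 0.23 ± 0.13, or 0.11 without Control 7, and the other 5 members by −0.10 to 0.07.

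Pairs of members varied together to different degrees across the 35 libraries. The highest Pearson correlation of log2 CPM was between Cd53 and Cd81, at 0.76, and 0.80 without Late 6. Cd9 and Cd63 correlated at 0.47, and at 0.81 without Late 6, where they moved apart. Cd37 and Cd63 correlated at −0.40, and at −0.04 without Late 6. Cd63 and Cd81 correlated at −0.05. The libraries share groups, date codes and cell mixture, so these values describe this set of libraries.

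Among all 13501 genes, those with the profile across 35 libraries most like that of Cd63 were Ctsb, which encodes the lysosomal protease cathepsin B (r = 0.91), Echs1, a mitochondrial enzyme of fatty acid oxidation (r = 0.90), and Plaur, the urokinase receptor (r = 0.88). For Cd81 they were Laptm5, a lysosomal membrane protein of leukocytes (r = 0.82), Itm2b, a membrane protein that is cut by proteases (r = 0.81), and Tspan31, another tetraspanin (r = 0.80). Without Late 6 these 6 correlations were 0.79 to 0.92.

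Other tetraspanin genes were examined for whether the rest of the family moved. Of 24 listed, 15 passed the filter on low counts, and the 3 with the highest mean TPM were Tspan14 at 486 TPM, Tspan7 at 376 TPM and Tspan31 at 327 TPM. Tspan14 guides the protease ADAM10 to the cell surface, and Tspan7 is best known from neurons. The 9 that were not tested had mean levels from 0 to 0.141 TPM. Late disease was the contrast in which any of the 15 passed, with 3 lower and 1 higher, a share to be set beside 15.4% of all genes.

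Tspan13 stood at 185, 212 and 235 CPM in late disease and at 237, 341 and 507 CPM in controls (lowest, median, highest). The groups thus did not overlap, by a small margin, and the share of all genes that separate in this way was not counted. It fell by 0.68 ± 0.10 on the log2 scale (adjusted p = 4.06e-05 by edgeR). Tspan14 stood at 433, 558 and 638 CPM in late disease and at 626, 716 and 885 CPM in controls, where Late 2 lay above Control 12 and the ranges were otherwise apart, and fell by 0.45 ± 0.08 (adjusted p = 0.000216 by edgeR). Tspan31 fell by 0.30 ± 0.09 (adjusted p = 0.0208 by edgeR), a call that ended without Late 1 (adjusted p = 0.0599). Tspan5, which like Tspan14 belongs to the tetraspanins that regulate ADAM10, rose by 0.43 ± 0.14 (adjusted p = 0.037 by edgeR), a call that ended without any 1 of 6 libraries, Control 5 and 6 and Late 2, 5, 6 and 7 (adjusted p of 0.0504 to 0.0941).

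The date codes bear on these calls. Against the 5 controls of shared date codes, 1 of the 15 passed in late disease, and with date code as a term 0 did, while 191 and 18 of all genes passed in those fits. Tspan13 differed by −0.43 with date code as a term (adjusted p = 0.242 by edgeR) and Tspan14 by −0.45 (adjusted p = 0.106). In early disease 0 of the 15 passed by edgeR, where 0.00741% of all 13501 genes did (1 gene), and by DESeq2. By edgeR 5 had an unadjusted p under 0.05, as did 1703 of all 13501 genes. The most extreme was Tspan7 at −0.30 ± 0.09 (adjusted p = 0.163 by edgeR). In recovery 0 passed by both tools, with 4 at an unadjusted p under 0.05 by edgeR, as were 2353 of all 13501 genes.

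**Figure D5:**
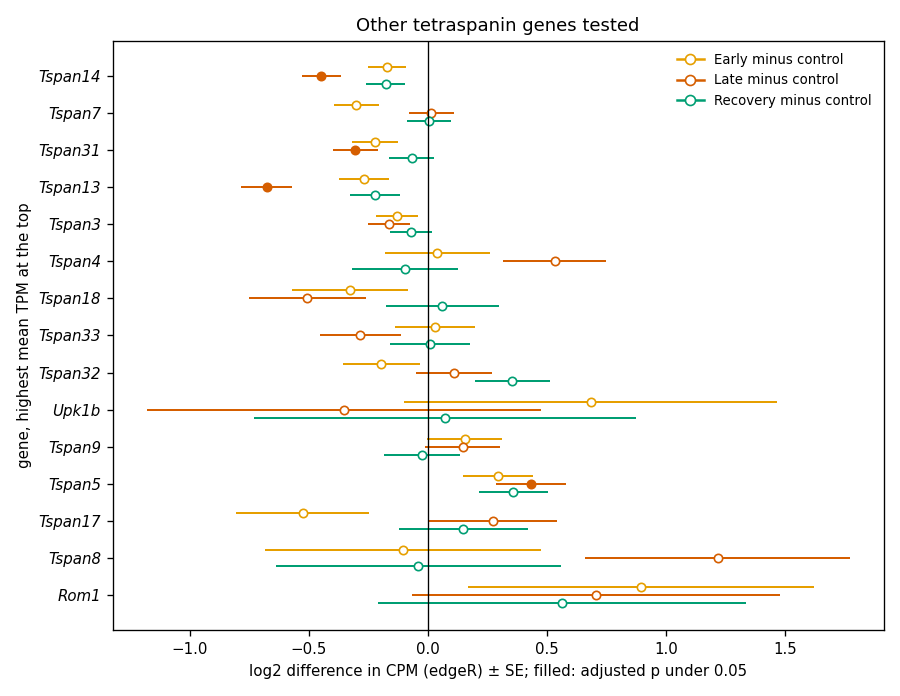
Log2 difference in CPM ± SE from controls of the 15 other tetraspanin genes tested, in early disease, late disease and recovery, ordered by mean TPM; filled points passed at an adjusted p under 0.05. Filled points are in late disease, with Tspan13, Tspan14 and Tspan31 below 0 and Tspan5 above 0.

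Proteins known to associate with tetraspanins were examined as a list of 16 genes, of which 13 were tested. By mean TPM the leading ones were Adam10, a sheddase, at 250 TPM, and the integrin chains Itgb1 at 247 TPM and Itga6 at 229 TPM. Like the lists of other tetraspanins and of vesicle genes, this list was chosen with earlier results of these data known. Its counts beside the share of all genes, in any contrast, are therefore a description. In late disease 7 of the 13 rose and 0 fell, where 15.4% of all genes passed, and the list's median log2 difference was 0.38, against 0.02 over all genes. The 6 with the smallest p were Clec7a, H2-Aa, Ptprc, H2-Ab1, Cd36 and Icam1.

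Clec7a, which encodes the receptor dectin-1, stood at 22.3, 174 and 285 CPM in late disease and at 15.3, 35.7 and 77.0 CPM in controls, and rose by 1.94 ± 0.36 (adjusted p = 0.000456 by edgeR). Late 6, the late library with the highest Cd63, had the lowest Clec7a, and without it the difference was 2.12. H2-Aa and H2-Ab1, the chains of an MHC class II molecule, rose by 2.48 ± 0.47 and 1.14 ± 0.30 (adjusted p = 0.000688 and 0.00835 by edgeR). Ptprc, which encodes CD45, rose by 0.38 ± 0.09 (adjusted p = 0.00575 by edgeR). Monocyte markers, of which 2 of 8 tested rose in late disease, summed to 32.0 to 158 CPM there against 6.51 to 26.3 CPM in controls. The calls of Cd36, a scavenger receptor (1.80 ± 0.61), and Icam1, an adhesion molecule (0.30 ± 0.10), ended without any 1 of 8 and 14 libraries, and their highest adjusted p were then 0.0742 and 0.124 by edgeR.

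In recovery 4 of the 13 partner genes rose and 0 fell, where 3.98% of all genes passed. H2-Aa stood at 8.04, 43.1 and 53.1 CPM in recovery and at 0.362, 2.43 and 9.57 CPM in controls, and rose by 3.74 ± 0.48 (adjusted p = 6.6e-06 by edgeR). Clec7a stood at 113, 159 and 279 CPM in recovery, and rose by 2.05 ± 0.36 (adjusted p = 0.000369 by edgeR). All its recovery libraries were above every control, and the share of all genes that separate in this way was not counted. H2-Ab1 rose by 2.15 ± 0.29 and Cd36 by 2.46 ± 0.61 (adjusted p = 1.29e-05 and 0.0146 by edgeR). These 4 genes are also transcribed in monocytes, whose markers summed to 71.2 to 608 CPM in recovery against 6.51 to 26.3 CPM in controls, and their part in these rises was not tested. With the neutrophil covariate, 0 of the 4 passed, in a fit where 4 of all 13501 genes did. Neutrophil markers were themselves higher in recovery, so no part of these rises is assigned to neutrophils. In early disease 0 of the 13 passed by edgeR and by DESeq2. By edgeR 0 had an unadjusted p under 0.05, where 1703 of all 13501 genes had one.

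Genes of vesicle formation and late endosomes, where CD63 resides, were a list of 19, of which 18 were tested. The leading ones by mean TPM were the lysosomal membrane genes Lamp1 at 1817 TPM and Lamp2 at 790 TPM, and Sdcbp, which encodes the vesicle adaptor syntenin, at 650 TPM. In late disease 3 rose and 4 fell, where 15.4% of all genes passed, with a list median of −0.02, against 0.02 over all genes. Those that fell were Tsg101, Vps4b, Stam and Vps4a, parts of the machinery that buds vesicles into endosomes, by 0.26 to 0.42 on the log2 scale. Tsg101 stood at 75.5, 101 and 111 CPM in late disease and at 95.9, 116 and 158 CPM in controls, and fell by 0.31 ± 0.09 (adjusted p = 0.0116 by edgeR). Vps4b fell by 0.26 ± 0.08 on the CPM scale, but differed by 0.03 on log2(TPM + 1).

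Among the vesicle genes that rose in late disease, Flot1, a membrane raft protein, differed by 0.52 ± 0.14 (adjusted p = 0.0122 by edgeR), and by 0.26 without Late 6 (adjusted p = 0.101). Pdcd6ip, which encodes the budding factor ALIX, rose by 0.34 ± 0.12 (adjusted p = 0.0441 by edgeR), a call that ended without any 1 of 10 libraries. The calls of Vps4b, Stam and Vps4a ended without any 1 of 3, 5 and 11 libraries. In early disease and in recovery 0 of the 18 vesicle genes passed by edgeR and by DESeq2, with 2 and 3 at an unadjusted p under 0.05 by edgeR. Of all 13501 genes, 1703 and 2353 had such a p in these contrasts. Against shared-date controls, 1 of the 31 partner and vesicle genes passed in late disease, and with date code as a term 0 did, where 14 had passed against all controls.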

How the data were processed

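Microglia had been sorted on CD11b and CD45 with dead cells excluded, after a Percoll gradient, and libraries made with the SMART-Seq Ultra Low-input and NexteraXT kits, per the labels' protocols. The authors deposited expected counts (estimated fragments per gene, not normalized) and TPM values for 35 libraries. RSEM, DESeq2 and the build mm10 are named, per the submitters' processing notes, their versions not given in the sources used here. One count of alignments per library, 38.4 M to 52.7 M, stands in the deposited design table, which also gave date codes and sex. RSEM divides reads of similar sequences by estimate, so copies of a gene can take some of its reads. The pseudogenes Cd63-ps and Cd9-ps held a mean of 38.3 and 1.34 fragments.

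Expected counts, 84.67% of them whole within 1e-6, were rounded. The test was edgeR's quasi-likelihood F test (edgeR 4.0.16, R 4.3.3, TMM, filter on low counts by group, group and labelled sex as terms, all 35 libraries, Benjamini-Hochberg adjustment over all 13501 genes, threshold 0.05). The script was tested on simulated data. CPM are counts per 1e6 of the TMM-scaled library size. SE derive from the F statistic. Alternatives were DESeq2 1.42.0, limma 3.58.1 on log2(TPM + 1) and log2(TPM + 0.1) over genes that reached a TPM of 1 in 6 libraries, other controls, other covariates and each library left out. The alternative without Recovery 3 and Control 6 was chosen after seeing the data. The labelled sex of 2 controls differs from that of the design table. TPM columns lacked 13.9 to 30.8% of the full total in the 9 controls of code 0810 and up to 11.4% in the others. Symbols were matched by identifier for 45143 of 45706 genes. Coordinates are from the GENCODE annotation of mm10.

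The members and lists were chosen with earlier results of these data known. Named genes were all 7 members, up to 6 genes past the test with the smallest p per list and comparison, the 3 of each list with the highest mean TPM, and the 3 genes most correlated with Cd63 and Cd81. Marker lists covered microglia, neutrophils, monocytes, border macrophages, oligodendrocytes, astrocytes, endothelium, mural cells and fibroblasts, B cells, T and NK cells, platelets and red cells.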

Additional observations from a re-analysis of the deposited data

Results flagged for a closer look

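Outlying libraries were looked for in the early, late and recovery groups and in the 2 kinds of control, as a highest or lowest sample whose gap to the next one, divided by the range of the group on log2 CPM, exceeded Dixon's critical value for the size of the group. Of 35 groups of values tested, 3 held such a library, where chance gives about 1 in 20. Cd37 in Late 6 was 222 CPM, below the other late libraries at 476 to 570 CPM. Cd63 in Recovery 9 was 908 CPM, above the other recovery libraries at 659 to 705 CPM. Cd151 in Late 1 was 18.1 CPM, above the other late libraries at 7.96 to 11.3 CPM, with a gap of 0.570 of the range against a critical value of 0.568.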

How the results depend on the processing

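Of the 2 members called in recovery minus control, 1 was called with WT controls alone, with rNLS8 controls alone and with a replicate block. With the neutrophil covariate 0 were called, and 4 of all 13501 genes passed in that fit. Replicate numbers do not pair the libraries: among 37 pairs with the same number, correlations of deviations ran from −0.201 to 0.137 and 2 were over 0.1, so a call lost under the block is not read as a weaker effect. Date code as a term gives no recovery value, since no other group has code 0803. Members called with 1 library left out numbered 1 (without Recovery 9) to 2. The counts of 0 in recovery minus late disease and in rNLS8 minus WT controls stayed 0 under every alternative run. Without Recovery 3 and Control 6, Cd36, Icam1 and Stam lost their late-disease calls.

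Other tetraspanins called in late disease were 4, but 2 with WT controls, 1 with shared-date controls and 0 with date code as a term. Those called in early disease were 0, but 1 with limma on log2(TPM + 1) and on log2(TPM + 0.1), 2 with rNLS8 controls and 2 with the replicate block. Those called in recovery were 0, but 1 without a low-count filter, 1 with rNLS8 controls and 1 with the replicate block. Partner and vesicle genes called in late disease were 14, but 6 with WT controls, 1 with shared-date controls, 0 with date code as a term, 9 with the neutrophil covariate, 7 without a low-count filter and 6 to 13 with 1 library left out (6 without Late 3, 7 without Late 6, 8 without Late 2 or Control 9, and 9 without Control 8, Late 4 or Late 5). Those called in early disease were 0, but 4 on both TPM scales. Those called in recovery were 4, but 0 with the neutrophil covariate, where 4 of all 13501 genes passed.

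Several differences that were not called changed sign. In recovery minus control these were Cd37 at 0.13 with the neutrophil covariate, and Cd151 at −0.20 with rNLS8 controls, −0.0243 with the replicate block and −0.0077 (without Recovery 9) to 0.2628 (without Recovery 3) with 1 library left out. In rNLS8 minus WT controls they were Cd63 at 0.17 and Cd81 at −0.0555 in the 9 controls of code 0810, and Cd81 at −0.13 on log2(TPM + 1). With 1 control left out, Cd9 ran from −0.1221 to 0.0306 (positive without Control 1, 5 or 8), Cd37 from −0.0832 to 0.0129 (positive without Control 11) and Cd63 from −0.1861 to 0.1686 (positive without Control 8 or 11). Cd63 in recovery minus late disease was 0.09 without Late 6. The called Vps4b in late disease was 0.0292 on log2(TPM + 1) and 0.0298 on log2(TPM + 0.1), where the median of all genes was 0.18 and 0.23. The cause of these changes was not tested. Over all genes, early disease minus control gave 1 call by edgeR, 154 by DESeq2, 735 with rNLS8 controls, 613 with the replicate block and 1390 on log2(TPM + 1), and recovery minus control gave 537 by edgeR and 863 by DESeq2. Depth limits Cd151 most, at 113 to 360 fragments per library.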
